A study of Rattus norvegicus with 6 samples.

Results

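The genes described here are 35 genes of DNA replication and S phase, chosen by symbol: the helicase subunits Mcm2 to Mcm7, the factors that load and start the helicase, the polymerases with their clamp and clamp loader, the suppliers of DNA precursors, the genes of replication-coupled chromatin assembly and DNA methylation, and 3 regulators of S phase entry. All 35 were found among the 37209 gene symbols of the deposited table, and all 35 passed the filter on low counts. They were read in primary mesenchymal stem cells of wild-type rat femoral bone marrow, stromal progenitors that can give rise to bone, cartilage and fat. In 1 group the cells received 3% cigarette smoke extract (CSE, a liquid loaded with the products of burning tobacco) for 6 h, and in the other they were kept for 6 h in serum-free medium. The cells of both groups had first been grown to near confluence with fetal bovine serum. Each group had 3 libraries, and the labels do not say whether these came from separate cultures or animals, so the p-values speak only of the spread among these libraries, and that spread may be technical.

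In G1 phase, CDC6 and CDT1 load the ring-shaped MCM helicase onto DNA at origins, and cyclin E activity and E2F transcription factors then carry the cell into S phase. CDC45 and the GINS complex turn the loaded ring into an active helicase, primase lays down primers, and the delta and epsilon polymerases copy the strands while held by the sliding clamp PCNA, which the RFC complex places on DNA. Many of these genes are transcribed at the G1/S boundary and are classical targets of E2F factors, so their RNA level follows the proliferation of a culture.

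Because E2F factors are known to act through an 8-base promoter element, the promoter windows of the members were searched for it, and 6 windows are printed to show the match beside the direction of each gene. A RefSeq table of promoter windows (assembly GRCr8, 250 bases before to 50 bases after each gene's start, 300 bases in all) held 30 of the 35 members, and Mcm4, Cdc6, Rrm2, Ccne2 and E2f1 were not in it. The submitters' processing notes name another build, Rnor_6.0, so no GRCr8 coordinate was joined to a count. Searched on either strand, with overlapping matches allowed, were TTTCCCGC, TTTCGCGC, TTTGCCGC and TTTGGCGC. Capitals mark the matches in the windows below, which run 5′ to 3′ in the direction of the gene. Mcm2, Tyms, Mcm6 and Mcm5 were lower with CSE, whereas Cdt1 and Pcna were higher.
Mcm2: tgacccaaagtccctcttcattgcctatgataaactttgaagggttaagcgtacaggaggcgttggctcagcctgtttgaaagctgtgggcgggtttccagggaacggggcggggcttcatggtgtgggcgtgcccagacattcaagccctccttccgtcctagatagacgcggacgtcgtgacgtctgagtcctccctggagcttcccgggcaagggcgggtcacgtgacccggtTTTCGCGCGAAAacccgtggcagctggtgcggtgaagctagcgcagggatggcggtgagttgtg
Tyms: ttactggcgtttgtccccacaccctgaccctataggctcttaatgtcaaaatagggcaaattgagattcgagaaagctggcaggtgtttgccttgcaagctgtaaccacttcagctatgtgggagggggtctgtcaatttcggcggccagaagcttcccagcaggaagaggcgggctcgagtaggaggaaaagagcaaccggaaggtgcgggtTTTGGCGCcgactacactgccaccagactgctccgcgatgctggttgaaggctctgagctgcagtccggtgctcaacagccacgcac
Mcm6: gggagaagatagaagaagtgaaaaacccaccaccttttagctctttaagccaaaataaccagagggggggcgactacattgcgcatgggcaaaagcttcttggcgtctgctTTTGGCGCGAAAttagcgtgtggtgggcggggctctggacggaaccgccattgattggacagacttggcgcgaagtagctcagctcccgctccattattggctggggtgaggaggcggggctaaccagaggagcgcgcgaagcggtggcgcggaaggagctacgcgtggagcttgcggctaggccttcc
Mcm5: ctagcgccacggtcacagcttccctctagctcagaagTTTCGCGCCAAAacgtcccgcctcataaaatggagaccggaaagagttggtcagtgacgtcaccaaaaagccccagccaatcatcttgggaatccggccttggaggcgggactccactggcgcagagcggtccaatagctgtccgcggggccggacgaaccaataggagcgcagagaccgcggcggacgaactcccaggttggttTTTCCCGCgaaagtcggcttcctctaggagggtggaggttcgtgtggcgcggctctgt
Cdt1: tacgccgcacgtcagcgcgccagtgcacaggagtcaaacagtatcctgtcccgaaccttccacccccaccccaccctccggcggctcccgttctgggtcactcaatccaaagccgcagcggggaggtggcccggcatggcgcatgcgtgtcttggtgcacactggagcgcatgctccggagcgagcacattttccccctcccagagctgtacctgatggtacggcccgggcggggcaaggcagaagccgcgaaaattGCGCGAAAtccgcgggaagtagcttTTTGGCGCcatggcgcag
Pcna: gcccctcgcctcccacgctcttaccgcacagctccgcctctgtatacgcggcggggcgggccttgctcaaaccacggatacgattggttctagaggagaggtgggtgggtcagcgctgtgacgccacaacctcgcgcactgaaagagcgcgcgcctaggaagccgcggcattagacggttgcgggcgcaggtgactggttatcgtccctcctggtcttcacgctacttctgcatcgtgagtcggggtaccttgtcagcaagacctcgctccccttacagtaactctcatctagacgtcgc
The Mcm2 window lies at chr4:122918045-122918344 on the minus strand, that of Tyms at chr9:120776034-120776333 on the minus strand, that of Mcm6 at chr13:42404303-42404602 on the minus strand, that of Mcm5 at chr19:13488563-13488862 on the plus strand, that of Cdt1 at chr19:67528999-67529298 on the plus strand and that of Pcna at chr3:139955771-139956070 on the minus strand. In Mcm2, Mcm6 and Mcm5 a pair of matches on opposite strands overlap in a single run of capitals. No match stands in the Pcna window, which says only that these letters are not in it.

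Of the 30 member windows, 15 (50%) held at least 1 such match, against 357 of 9059 windows of tested genes (3.94%) and 618 of all 27457 windows (2.25%). Replication genes outside the members, a list described below, held it in 16 of 37 windows (43.2%), so it was not particular to the members. The match was found in 12 of the 25 windows of members that were lower with CSE and in 3 of the 4 windows of members that were higher (Cdt1, Gins3 and Slbp). The match was thus present in genes of both directions. In 13 of the 15 genes a match lay within 60 bases of the start, and the exceptions were Mcm6 and Slbp. The CHR element TTTGAA, known from promoters of mitosis genes, was in 4 of the 30 member windows (13.3%) and in 11.5% of the windows of tested genes, whereas 24 of 33 mitosis gene windows (72.7%) held it and 1 of 33 (3.03%) held the E2F-type match. The CCAAT box was in 19 of the 30 member windows (63.3%), against 37.3% of the windows of tested genes. Mitosis genes held it more often, in 24 of 33 windows (72.7%), and replication genes outside the members less often, in 16 of 37 (43.2%). A match is a stretch of letters and not evidence that a factor binds.

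**Figure D1:**
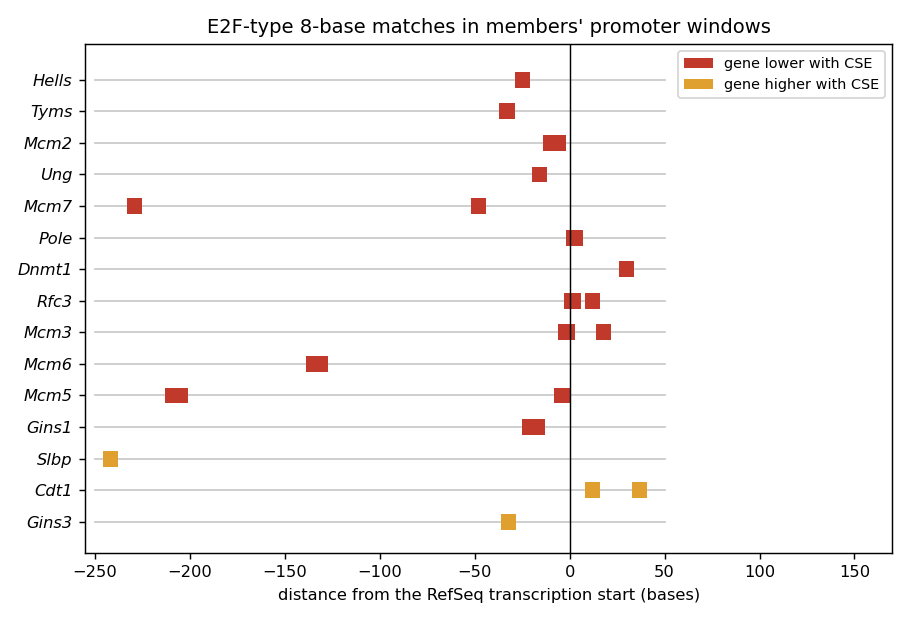
Positions of E2F-type 8-base matches (bars, to scale) in the promoter windows (grey lines) of the 15 members that hold 1, ordered from the largest fall to the largest rise. The x axis is the distance from the RefSeq transcription start in bases, and colour gives the direction of the gene with CSE. Matches in 13 of the 15 genes lie within 60 bases of the start, and 3 of the 15 genes were higher with CSE.

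Library totals ranged from 15958621 to 22589327 counts and averaged 20930552 with CSE and 17430800 in the control (exact 2-sided permutation p = 0.1, the smallest that 3 libraries against 3 allow). Within a group, log2 CPM correlated between libraries at 0.994 to 0.996 across the tested genes, and no library stood apart. All levels are counts per 1000000 counts (CPM) after TMM scaling. All 14 stromal markers looked up had counts, and 7 were called lower, 4 higher and 3 neither. Their summed level was 31909 to 33255 CPM with CSE and 32872 to 35991 CPM in the control, most of it from the collagen gene Col1a1 (26096 ± 666 and 28797 ± 1889 CPM). The chemokine gene Cxcl12 (log2 fold change −2.17 ± 0.06) and the receptor gene Pdgfra (−0.97 ± 0.06) were lower, and the hyaluronan receptor gene Cd44 (1.09 ± 0.05) was higher. Of 19 markers of blood cells and macrophages, 6 were at 0 in every library (Cd163, Cd79a, Cd3e, Gata1, Hbb and Elane). Of the 10 tested, 4 were called lower (40.0% against 37.5%), 2 higher (20.0% against 36.3%) and 4 neither. In the RefSeq table Gata1 lies on chromosome X, and all 4 genes looked up there (Gata1, Pola1, Fancb and the widely expressed Rbbp7) were at 0, so its 0 says nothing of blood cells. The summed level of the 19 was 1742 to 1795 CPM with CSE, above the 1573 to 1621 CPM of the control. This order turned when total counts alone set the scale (1644 to 1675 per 1000000 counts with CSE and 1687 to 1725 in the control), and on that scale the stromal sums, too, were apart (30108 to 30983 and 34979.6 to 38613). The macrophage-expressed lysozyme gene Lyz2 made up most of it, at 1175 ± 19.3 CPM in control libraries and 1413.75 ± 24.8 CPM under CSE, and Cd68 was called higher too (0.14 ± 0.06). Lower were Cd14, a monocyte receptor gene (45.2 ± 3.97 CPM in control libraries and 16.5 ± 1.14 CPM under CSE), Ptprc, which encodes the pan-leukocyte protein CD45 (61.9 ± 2.30 and 49.3 ± 0.819 CPM), Csf1r (−0.25 ± 0.05) and Mrc1 (−0.28 ± 0.07). Of 8 endothelial markers Emcn was at 0 throughout, and the sum of all 8 was 25.9 to 28.7 CPM with CSE and 23.1 to 25.8 CPM in the control. Of the 3 endothelial markers tested, Egfl7 was higher (13.2 ± 1.16 CPM in control libraries and 19.5 ± 0.717 CPM under CSE) and Tek lower (5.89 ± 0.529 and 3.23 ± 0.340 CPM). These marker genes were picked for naming after their values were seen. The part of these other cells in the results below was not tested. In such bulk samples, fewer cycling cells and less RNA per cell cannot be told apart.

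Values below are TMM-normalized counts per 1000000 counts (CPM), given per library in the order of replicates 1, 2 and 3 or as mean ± SD (n = 3), and log2 fold changes (CSE over control) carry their SE. Adjusted p-values are from edgeR's quasi-likelihood test over all 13390 tested genes, with a threshold of 0.05. Gene lengths were not used, so levels are compared between groups and not between genes.

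Replication and S phase genes were mostly lower in the CSE libraries. Of the 35, 30 fell, 4 rose (Pcna, Slbp, Cdt1 and Gins3) and 1, Rfc4, did not pass the test. Among all tested genes 73.9% passed, 37.5% as lower and 36.3% as higher. The falls ranged from 1.21-fold in Gins1 to 4.51-fold in Hells, and 13 members were called lower by 2-fold or more, a step that 14.4% of all tested genes took. The rises lay between 1.27-fold and 1.39-fold. The median log2 fold change of the members was −0.82, against −0.02 over all tested genes. Hells had under 10 counts in every CSE library and passed the filter through the control group alone, and without it 29 of 34 were lower, with a median of −0.81. CSE and control libraries did not overlap in 34 of the 35, against 75.8% of all tested genes. The summed level of the members was 1120.5, 1120.51 and 1072 CPM with CSE and 1729, 1698 and 1748 CPM in the control.

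**Figure D2:**
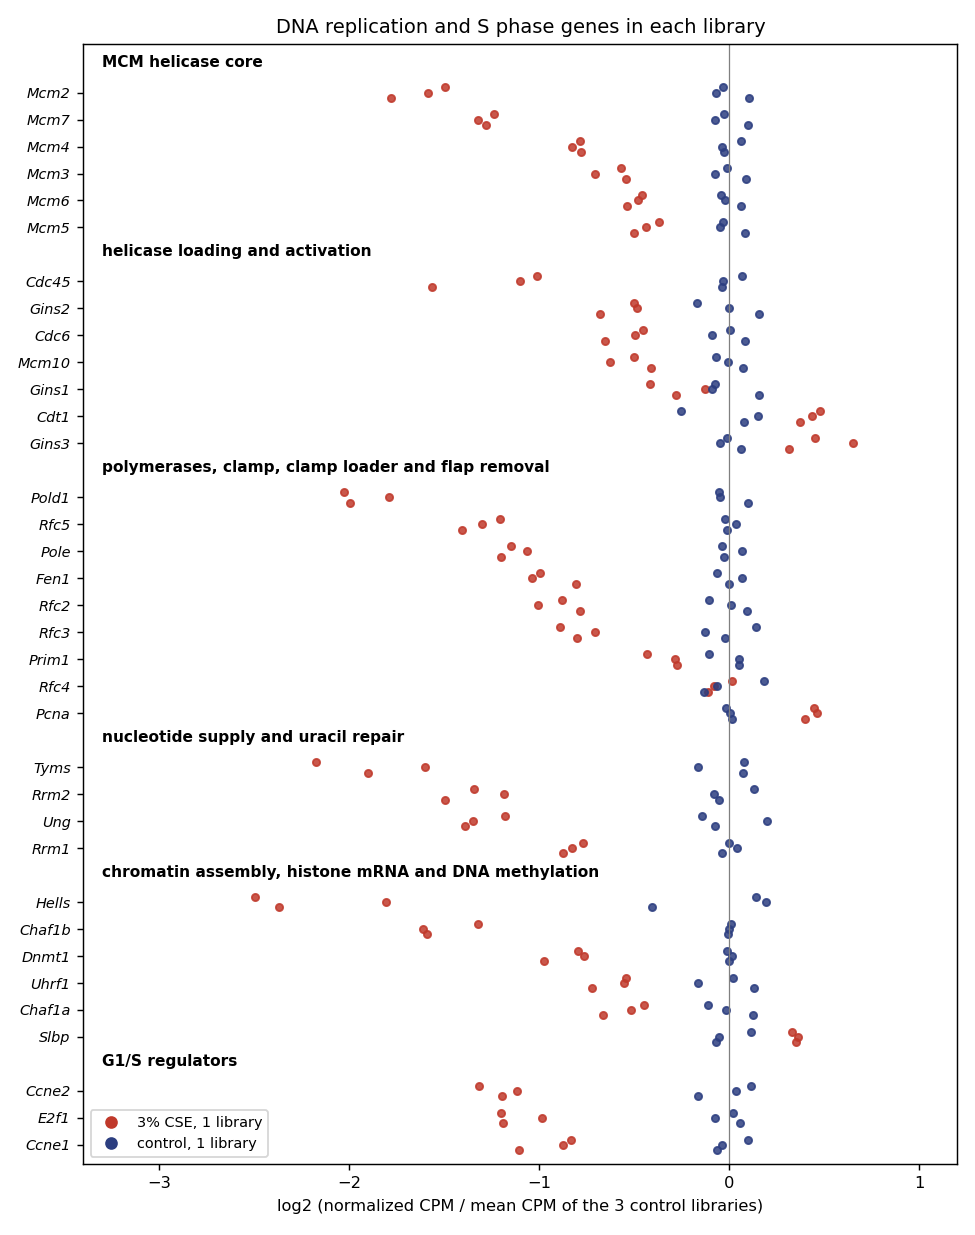
Each of the 35 genes (rows, grouped by role) in each library (points), as log2 of its normalized CPM over the mean CPM of the 3 control libraries. CSE points lie left of all control points in 30 genes and right of them in Pcna, Slbp, Cdt1 and Gins3, and they mix with control points in Rfc4.

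All 6 genes of the MCM helicase core fell, Mcm2 and Mcm7 by more than 2-fold and the others by less. Mcm2 was at 31.7, 29.7 and 26.0 CPM with CSE and at 87.1, 84.97 and 95.9 CPM in the control (log2 fold change −1.62 ± 0.07, edgeR adjusted p = 1.76e-12). Mcm7 was at 31.8, 29.9 and 30.9 CPM with CSE and at 73.6, 71.3 and 80.1 CPM in the control (−1.28 ± 0.06, edgeR adjusted p = 5.4e-12). In these genes even the highest CSE library lay far below the lowest control library. Mcm4 fell from 126 ± 4.79 to 72.5 ± 1.35 CPM (−0.80 ± 0.05) and Mcm3 from 72.3 ± 4.23 to 47.5 ± 2.82 CPM (−0.61 ± 0.06). Mcm6 was at 62.2, 61.5 and 59.0 CPM with CSE and at 83.2, 84.4 and 89.4 CPM in the control (−0.49 ± 0.05). Mcm5 changed least, from 77.9 ± 4.07 to 57.5 ± 2.58 CPM (−0.44 ± 0.06, edgeR adjusted p = 2.84e-06). The proteins of these genes work as a ring with 1 copy of each, whereas their RNAs fell by 1.35-fold to 3.06-fold.

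Within the counts of these 6 genes, a comparison that needs no scaling between libraries, the make-up differed between the groups. Mcm2 took 17.0% ± 0.448 of them in the control and 9.75% ± 0.791 with CSE, and Mcm7 took 14.2% ± 0.313 and 10.3% ± 0.155. The share of Mcm5 was 14.8% ± 0.262 in the control and 19.3% ± 0.482 with CSE, that of Mcm6 was 16.3% ± 0.371 and 20.4% ± 0.448, and that of Mcm3 was 13.7% ± 0.256 and 15.9% ± 0.913. In each of these 5 genes the CSE and control libraries did not overlap in share. Mcm4 took 24.0% ± 1.31 and 24.3% ± 0.591, with overlapping libraries. These shares were not tested.

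**Figure D3:**
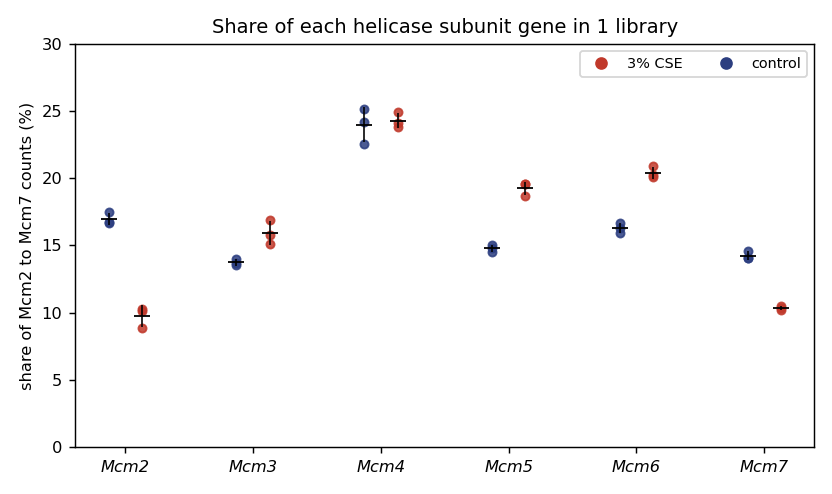
Share of each gene in the summed counts of Mcm2 to Mcm7 in each library (points, y axis in percent), with the group mean and SD in black. Mcm2 and Mcm7 have lower shares in the 3 CSE libraries than in the 3 control libraries, Mcm3, Mcm5 and Mcm6 have higher ones, and Mcm4 overlaps.

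The genes that load and activate the helicase were divided, with 5 lower and 2 higher. Cdc45, whose product joins the MCM ring to form the working helicase, was at 11.1, 10.5 and 7.60 CPM with CSE and at 23.6, 22.0 and 21.9 CPM in the control (−1.21 ± 0.12, edgeR adjusted p = 4.42e-08). All 3 CSE libraries lay far below the control range, and replicate 3 was the lowest. Cdc6, a loader of the helicase, fell from 28.7 ± 1.72 to 19.8 ± 1.41 CPM (−0.53 ± 0.08), and Mcm10, which helps start the fork, from 25.4 ± 1.24 to 17.9 ± 1.33 CPM (−0.51 ± 0.08). Cdt1, the partner of CDC6 in loading, moved the other way. It was at 21.5, 20.9 and 20.1 CPM with CSE and at 12.96, 17.2 and 16.3 CPM in the control (0.43 ± 0.10, edgeR adjusted p = 8.99e-04).

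The GINS genes did not move together, although their products form 1 complex. Gins2 fell from 10.0 ± 1.13 to 6.82 ± 0.494 CPM (−0.56 ± 0.13). Gins3 rose, with 10.96, 12.6 and 9.97 CPM with CSE and 7.95, 7.75 and 8.38 CPM in the control (0.48 ± 0.12, edgeR adjusted p = 0.00166). Gins1 was at 9.01, 11.02 and 9.92 CPM with CSE and at 11.4, 11.3 and 13.4 CPM in the control. Its difference (−0.28 ± 0.11 in log2) passed narrowly, at an edgeR adjusted p of 0.0377. The call of Gins1 ended with DESeq2 (adjusted p = 0.102), with DESeq2 size factors in edgeR (adjusted p = 0.0509), and without CSE replicate 1 (0.157), CSE replicate 3 (0.0779) or control replicate 3 (0.161). Over 14 alternatives its adjusted p ran from 0.00149 to 0.161.

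The catalytic subunit genes of both replicative polymerases fell, whereas the clamp gene Pcna rose. Pold1, the catalytic subunit of polymerase delta, was at 7.69, 9.05 and 7.86 CPM with CSE and at 30.1, 30.3 and 33.6 CPM in the control (−1.94 ± 0.09, edgeR adjusted p = 3.99e-12). Pole, the catalytic subunit of polymerase epsilon, was at 21.9, 23.2 and 21.1 CPM with CSE and at 47.2, 50.8 and 47.5 CPM in the control (−1.14 ± 0.07). Neither gene had a CSE library near the control range. Prim1, which encodes the catalytic primase subunit, fell less, from 46.9 ± 2.87 to 37.3 ± 2.17 CPM (−0.33 ± 0.07). Fen1, the flap nuclease that trims Okazaki fragments, fell from 37.1 ± 1.73 to 19.3 ± 1.67 CPM (−0.95 ± 0.08). Pcna was at 144, 146 and 139 CPM with CSE and at 105, 106 and 107 CPM in the control (0.44 ± 0.05, edgeR adjusted p = 2.18e-07). The Pcna libraries lay close together within each group and apart between them. Pcna is also known as a p53 target.

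Of the 4 clamp loader genes among the members, 3 fell and Rfc4 did not pass. Rfc5 fell from 21.8 ± 0.459 to 8.83 ± 0.612 CPM (−1.30 ± 0.09), Rfc2 from 22.0 ± 1.54 to 11.9 ± 0.903 (−0.89 ± 0.09) and Rfc3 from 22.8 ± 2.16 to 13.1 ± 0.837 (−0.80 ± 0.09). Rfc4 was at 21.9, 20.5 and 20.1 CPM with CSE and at 24.6, 20.7 and 19.8 CPM in the control. These libraries overlapped (log2 difference −0.05 ± 0.09, edgeR adjusted p = 0.59). The gene of the large clamp loader subunit, Rfc1, is no member and was picked here after its values were seen. It fell from 59.7 ± 3.65 to 40.6 ± 2.79 CPM (−0.56 ± 0.07, edgeR adjusted p = 7.6e-07). The sign of Rfc4 turned without control replicate 1 (0.04), and under total counts alone it was called lower (−0.24, edgeR adjusted p = 0.0205). Over 14 alternatives its adjusted p ran from 0.0205 to 0.859.

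All 4 genes of nucleotide supply and uracil repair fell, 3 of them by more than 2-fold. Tyms, which encodes the thymidylate synthase that makes dTMP from dUMP, was at 6.404, 9.54 and 7.75 CPM with CSE and at 30.6, 25.8 and 30.4 CPM in the control (−1.88 ± 0.12, edgeR adjusted p = 1.8e-10). Rrm2, the S phase subunit of ribonucleotide reductase, was at 34.1, 38.0 and 30.6 CPM with CSE and at 94.3, 81.6 and 83.1 CPM in the control (−1.34 ± 0.08). Rrm1, the large subunit of the same enzyme, fell from 189 ± 5.34 to 107 ± 4.03 CPM (−0.82 ± 0.05). Ung, which removes uracil from DNA, fell from 17.8 ± 2.31 to 7.19 ± 0.560 CPM (−1.30 ± 0.12). In all 4 genes every CSE library lay below every control library.

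Among the chromatin and DNA methylation genes 5 fell and Slbp rose. Chaf1b, the middle subunit of the histone chaperone CAF-1, was at 5.55, 4.53 and 4.6 CPM with CSE and at 13.96, 13.9 and 13.8 CPM in the control (−1.50 ± 0.12, edgeR adjusted p = 4.35e-09). Chaf1a, its large subunit, fell less, from 41.3 ± 3.43 to 28.4 ± 2.15 CPM (−0.54 ± 0.08). The gene of its small subunit, Rbbp4, is no member and went the other way. It rose from 22.4 ± 2.02 to 35.7 ± 2.77 CPM (0.67 ± 0.08, edgeR adjusted p = 8.34e-07). The maintenance methyltransferase gene Dnmt1 was at 60.7, 61.9 and 53.6 CPM with CSE and at 105, 106 and 105 CPM in the control (−0.84 ± 0.06). Uhrf1, which brings DNMT1 to newly copied DNA, fell from 56.4 ± 5.78 to 37.0 ± 2.53 CPM (−0.61 ± 0.08). Hells, a chromatin remodeller needed for DNA methylation, had only 5, 7 and 5 counts with CSE and 25, 29 and 20 in the control (−2.17 ± 0.40, edgeR adjusted p = 9.49e-05). Its standard error was the largest of the members, and its counts were far below those of the others. The sources used here do not say which gene model was counted, so the fold of Hells is uncertain. Slbp, which binds the stem-loop of replication-dependent histone mRNAs, was at 89.1, 91.2 and 90.4 CPM with CSE and at 76.8, 68.3 and 67.7 CPM in the control (0.35 ± 0.06, edgeR adjusted p = 3.04e-05). All 3 CSE libraries of Slbp were above the highest control library.

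The 3 regulators of S phase entry fell together. Ccne2 was at 21.8, 25.1 and 23.7 CPM with CSE and at 58.9, 55.8 and 48.6 CPM in the control (−1.21 ± 0.08, edgeR adjusted p = 2.76e-10). Its relative Ccne1, the other cyclin E gene, fell from 23.0 ± 1.38 to 12.1 ± 1.2 CPM (−0.93 ± 0.09). E2f1, the gene of an activating E2F factor, was at 12.7, 14.8 and 12.8 CPM with CSE and at 29.6, 27.7 and 30.4 CPM in the control (−1.12 ± 0.08, edgeR adjusted p = 1.75e-09). No CSE library of these genes reached the control range.

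Members with related roles were compared by the ratio of their counts inside each library, which cancels library scaling. For 10 pairs, the groups were set against each other in an exact permutation test (2-sided), whose smallest p is 0.1 with 3 against 3, or 0.143 here after adjustment over the 10. The ratio of Cdc6 to Cdt1 was 0.971, 0.971 and 0.910 with CSE and 2.22, 1.57 and 1.87 in the control, a 1.96-fold shift (exact permutation p = 0.1, adjusted 0.143). That of Chaf1a to Chaf1b was 5.46, 6.39 and 5.67 with CSE and 2.74, 2.94 and 3.27 in the control, a 1.95-fold shift the other way (same p). Pold1 against Pole went from 0.638, 0.595 and 0.706 in the control to 0.351, 0.391 and 0.373 with CSE, a 1.73-fold shift. These are the widest of the 10 shifts, and in none of them did the groups overlap.

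Gins1 against Gins3 shifted 1.67-fold, Rrm1 against Rrm2 1.43-fold, Mcm2 against Mcm7 1.26-fold and Uhrf1 against Dnmt1 1.18-fold, again with groups apart and p = 0.1 by the exact permutation test. The cyclin E ratio, Ccne1 to Ccne2, was 0.593, 0.5 and 0.451 with CSE and 0.418, 0.402 and 0.453 in the control, and the groups overlapped (exact permutation p = 0.2). Mcm3 against Mcm6 and Rfc3 against Rfc2 overlapped as well (exact permutation p = 0.2 and 0.5). Of the 10 ratios, 7 were thus apart between the groups, and no adjusted p could pass 0.05 in this design. Taken singly, 75.8% of all tested genes did not overlap between the groups, and ratios of other gene pairs were not computed. Each ratio restates the changes of its 2 genes given above.

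**Figure D4:**
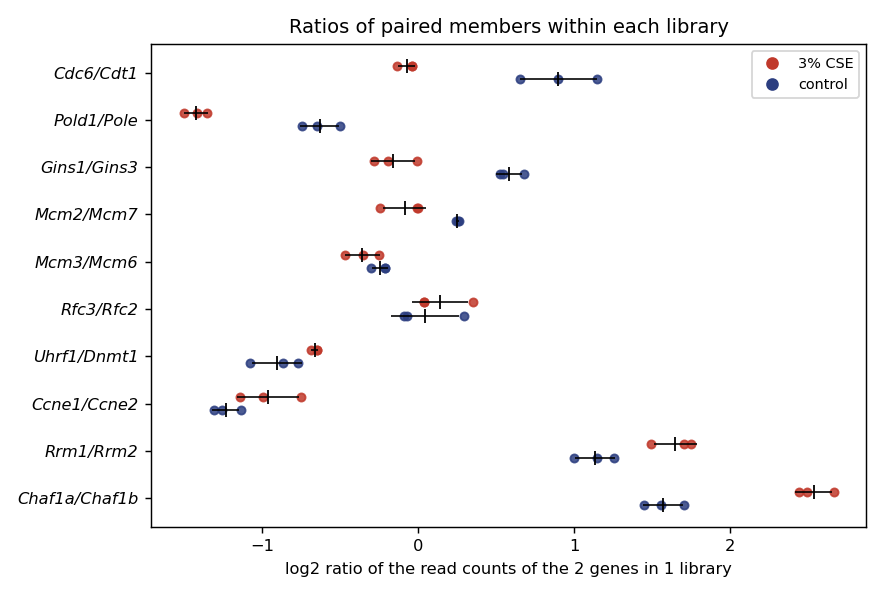
log2 ratio of the read counts of 2 genes in each library (points) for 10 pairs of members, with group means and SD in black. The groups stand apart in 7 pairs, most widely for Cdc6/Cdt1, Chaf1a/Chaf1b and Pold1/Pole, and overlap for Ccne1/Ccne2, Mcm3/Mcm6 and Rfc3/Rfc2.

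Other genes of the replication machinery, from a list of 46 that holds no member, moved less evenly. Of 44 tested, 29 were called lower (65.9%, against 37.5% of all tested genes), 6 higher (13.6% against 36.3%) and 9 neither. Their median was −0.45 in log2. Pola1 had 0 counts in each of the 6 libraries. It is among the 4 chromosome X genes named above, so its 0 says nothing of these cells. The largest falls were in Top2a, which untangles copied chromosomes (−1.77 ± 0.05), Rpa3, a subunit of the single-strand binding complex RPA (−1.62 ± 0.11), the polymerase epsilon subunit gene Pole2 (−1.60 ± 0.12) and Chtf18, of an alternative clamp loader (−1.58 ± 0.12). Partner subunit genes, picked after their values were seen, did not all follow. Rpa1 (−0.07 ± 0.06) and Rpa2 (0.06 ± 0.07) did not pass. Pole3 fell (−0.29 ± 0.11) and Pole4 rose (0.21 ± 0.07). Of polymerase delta, Pold2 fell (−0.41 ± 0.10), and Pold3 (−0.17 ± 0.08) and Pold4 (−0.09 ± 0.09) did not pass. Orc4 and Orc2, of the origin recognition complex that marks origins throughout the cell cycle, rose from 38.0 ± 2.87 to 79.6 ± 6.94 CPM (1.07 ± 0.07) and from 38.0 ± 3.08 to 51.8 ± 2.59 CPM (0.45 ± 0.07). The complex as a whole was mixed, with 3 of its 6 subunit genes lower and 3 higher. The others, picked after their values were seen, were Orc3 (−1.25 ± 0.09), Orc6 (−0.69 ± 0.11) and Orc5 (−0.59 ± 0.10), all lower, and Orc1 (0.30 ± 0.08), higher. The topoisomerase gene Top1 rose from 64.1 ± 6.71 to 132 ± 9.55 CPM (1.05 ± 0.07), and Mcmbp, an MCM-binding protein gene which the table lists as RGD1306730, rose as well (0.57 ± 0.06). The edgeR adjusted p of Top2a, Rpa3, Pole2, Chtf18, Orc4, Orc2, Top1 and Mcmbp was at or below 1.29e-05, the value of Orc2.

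Of 19 genes of nucleotide supply outside the members, 8 were called lower (42.1%, against 37.5% of all tested genes), 5 higher (26.3% against 36.3%) and 6 neither, with a median of −0.04, so the list was close to the background. Dctd, which makes dUMP for thymidylate synthase, fell from 18.2 ± 1.87 to 6.91 ± 0.724 CPM (−1.39 ± 0.11), and the dUTPase gene Dut, which yields dUMP from dUTP, was at −0.82 ± 0.08. Shmt1, of the folate cycle that feeds thymidylate synthase, was at −0.72 ± 0.08. The purine synthesis genes Ppat (1.05 ± 0.05) and Gart (0.25 ± 0.05) rose, as did Rpia of the pentose phosphate pathway (0.65 ± 0.08).

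A list of E2F, pocket protein and DREAM factors, which switch these promoters on and off, also held other cell cycle genes. These were Ccna2, Cdk2, Cdc25a, Skp2 and Fbxo5. Of the 21 genes tested in this list, 11 were called lower (52.4%, against 37.5% of all tested genes). Another 5 were higher (23.8% against 36.3%) and 5 neither (median −0.27). Fbxo5, an inhibitor of the anaphase-promoting complex, fell from 22.1 ± 0.321 to 5.43 ± 0.406 CPM (−2.02 ± 0.10). The repressor genes E2f8 (−1.87 ± 0.15) and E2f7 (−1.77 ± 0.09) and the pocket protein gene Rbl2 (−1.71 ± 0.11) fell too. Lin37 rose from 10.3 ± 0.962 to 30.7 ± 2.21 CPM (1.57 ± 0.09) and Lin54 from 35.3 ± 1.12 to 90.0 ± 5.40 CPM (1.35 ± 0.06), both of the MuvB core shared by repressing and activating complexes. E2f3, an activating E2F gene, rose from 12.98 ± 1.80 to 22.8 ± 1.81 CPM (0.81 ± 0.10), the opposite direction to E2f1.

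Genes of 2 neighbouring programmes were read in the same fit. Of 39 mitosis genes 38 were called lower, none was called higher and 1 was neither (median −0.96). Of 31 tested genes of homologous recombination, the Fanconi pathway and checkpoints, 21 were called lower, 3 higher and 7 neither (median −0.75). The share called lower was 97.4% for mitosis and 67.7% for the recombination, Fanconi and checkpoint list, against 37.5% of all tested genes. In the latter list 9.68% were called higher, against 36.3% of all tested genes. The medians of these lists and of the members (−0.82) were not tested against each other.

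**Figure D5:**
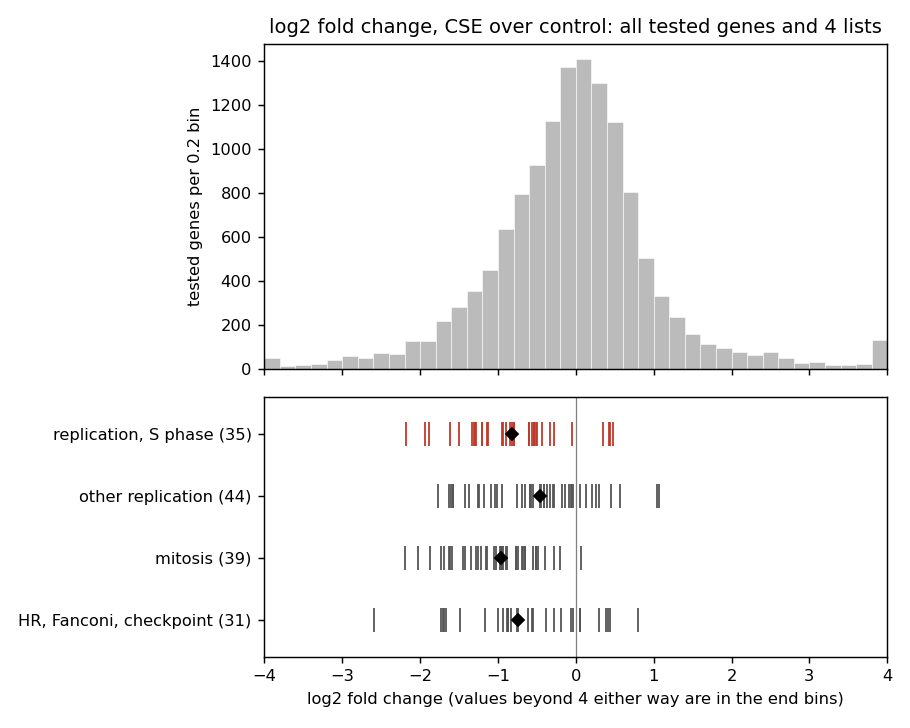
Upper panel, number of tested genes per 0.2-wide bin of log2 fold change (CSE over control). Lower panel, each gene of 4 lists as a tick on the same axis, with the list median as a black diamond; medians are −0.82 for the replication and S phase genes, −0.45 for other replication genes, −0.96 for mitosis and −0.75 for homologous recombination, Fanconi and checkpoint genes.

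Scaling moved the members together with all other genes. Upper-quartile scaling shifted the median of all tested genes by −0.14 and total counts alone by −0.19, and the members' median moved by the same −0.14 and −0.19. Higher genes were 49.2% of all called genes with TMM, 40.3% with upper-quartile scaling and 37.2% with total counts alone. Pcna, Slbp, Cdt1 and Gins3 were called higher under every one of the 14 alternatives, these scalings included, with adjusted p up to 1.57e-04, 0.0177, 0.0406 and 0.0394.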

How the data were processed

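RNA was sequenced from 3 CSE and 3 control libraries, and the authors deposited raw read counts per gene symbol for the 6 libraries, without normalization. HISAT2 2.0.4 and the build Rnor_6.0 are named, without a role, per the submitters' processing notes. How reads were counted, on which strand and with which annotation is not stated in the sources used here, so reads of overlapping or antisense genes and of near-identical copies cannot be told apart.

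Columns were assigned to samples by name. In edgeR 4.0.16 (R 4.3.3), filterByExpr kept 13390 of 21252 genes with any count, libraries were scaled by TMM, and the groups were compared with glmQLFTest (quasi-likelihood, 2-sided). P-values were adjusted by Benjamini and Hochberg's method over every tested gene. The standard error is the log2 fold change divided by the square root of F. Ratios of members used counts plus 0.5 for the tests, and plain counts for the printed ratios. Pairs of libraries across groups had a chi-square per degree of freedom of 136 or more and pairs within a group 2.76 to 4.73. Each library was counted as 1 replicate, although these values cannot tell separate cultures from technical repeats. Same-numbered libraries did not deviate together, so no pairing was used. The fit was also run on simulated data in which few genes changed, unlike here, so that run could not check the scaling.

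The members and the other lists were chosen with earlier results of these data known. All 35 members are named. Of the other lists, up to 4 called genes with the largest change in each direction and a mean CPM of 5 or more could be named. Alternatives were DESeq2 1.42.0 as a test and for size factors, limma-voom (limma 3.58.1), upper-quartile and total-count scaling, no filter or at least 1 CPM in every library of a group, a replicate block, and leaving out each library. Promoter sequences are RefSeq's, of GRCr8.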

Additional observations from a re-analysis of the deposited data

How the results depend on the processing

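Of the 35 members, 33 kept their direction and their side of the threshold under all 14 alternatives, and the exceptions were Gins1 and Rfc4. Between 29 and 31 members were called lower and 4 higher in each. The members' median log2 fold change of −0.82 was −0.80 with DESeq2 size factors in edgeR, −0.80 with the DESeq2 test, −0.96 with upper-quartile scaling and −1.01 with total counts alone, and leaving out 1 library at a time gave −0.85 to −0.79. With 1 library left out, Rfc4 ranged from −0.13 to 0.0381 around its −0.05, above 0 only without control replicate 1, and the log2 shift of the Rfc3 to Rfc2 ratio ranged from −0.0077 to 0.222 around its 0.0961, below 0 only without CSE replicate 2. The cause was not tested. With the replicate number as a block, 30 members were called lower and 4 higher, with a median of −0.82, and no member's call changed. Same-numbered libraries correlated at −0.0252 to 0.00463 in their deviations from the group means, and no library correlated best with its own number. This showed no pairing. It cannot exclude a shared culture or animal, because counting noise across all tested genes enters these correlations. Precision was lowest for Hells, which rests on 5 to 7 counts in each CSE library of 19433637 or more counts in all.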

Other observations

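Of 15 tested genes of replication-coupled chromatin outside the members, 7 were called higher (46.7%, against 36.3% of all tested genes), 7 lower (46.7% against 37.5%) and 1 neither, a split close to that of all tested genes. The histone chaperone genes of the ASF1 pair moved in opposite directions. Asf1b, the form tied to proliferation, fell from 27.4 ± 2.16 to 11.9 ± 0.898 CPM (log2 fold change −1.21 ± 0.09), and Asf1a rose from 31.7 ± 1.73 to 44.2 ± 0.945 CPM (0.48 ± 0.06). Nasp, a chaperone of free histones, rose from 91.1 ± 5.22 to 131.9 ± 1.18 CPM (0.53 ± 0.05). Mms22l and Tonsl, whose products act together at damaged forks, fell (−0.98 ± 0.07 and −0.73 ± 0.12). The edgeR adjusted p of these 5 genes was at or below 4.22e-05.

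Histone genes were looked at beside Slbp, and this list, the 35 symbols that begin with Hist and a digit, was chosen after its values were seen. Only 9 passed the filter on low counts. Of these, 4 were higher (44.4%, against 36.3% of all tested genes), 2 lower (22.2% against 37.5%) and 3 not past the test. Hist1h2bh rose from 49.98 ± 1.66 to 69.6 ± 3.31 CPM and Hist1h4b from 13.3 ± 1.91 to 17.0 ± 0.676 CPM, whereas Hist2h2be fell from 4.08 ± 0.141 to 1.07 ± 0.338 CPM. Histone genes have near-identical copies and most of their mRNAs lack a poly(A) tail, and the sources used here do not say whether the libraries were selected for poly(A), so these levels are uncertain.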
